A study of Mus musculus with 31 samples.

Results

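The genes described here are 10 feedback and output genes of the MAP kinase (ERK) pathway, taken by name: Spry1, Spry2, Spry4, Spred1, Spred2, Dusp4, Dusp5, Dusp6, Etv4 and Etv5. All 10 were listed in each of the 21 RNA-seq tables, among 24062 gene names at postnatal day 10 (P10) and at 8 weeks and among 24322 in culture. In 15 libraries the RNA came from dentate gyrus cells of C57BL/6 mice with the genotype Nestin-EGFP, in which regulatory sequence of the Nestin gene drives EGFP in stem and progenitor cells, and the cells were sorted for EGFP. All these mice were injected intraperitoneally on postnatal days 7, 8 and 9, with the sedative midazolam at 10 mg/kg (MDZ groups) or with water (Control groups). The groups were MDZ P10 and Control P10, and RUN MDZ 8w (exposed mice housed with a running wheel), MDZ 8w and Control 8w, with 3 libraries each. No running mice without midazolam were listed. The other 6 libraries came from neural stem cells of wild-type ICR mice, taken from the cortex at embryonic day 11, passaged more than 20 times and kept in bFGF and EGF at 20 ng/ml each. All cultured cells carried a lentivirus for the M2rtTA transactivator. Egr1 culture (3 libraries) had a lentivirus for Flag-tagged Egr1 in addition, and Control culture (3 libraries) did not. A P10 library held 50000 cells of 1 mouse, and an 8-week library held about 30000 cells pooled from 3 to 5 mice. Whether the 3 libraries of a culture group came from separate cultures is not labelled, so p-values in culture measure a spread that may be technical. Of the 31 samples listed, 10 chromatin samples were not analysed here.

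FGF and EGF receptors switch on Ras, which starts the relay from Raf to MEK to the kinase ERK. Active ERK induces genes that restrain the relay: Sprouty and Spred proteins act on it near Ras and Raf, and dual-specificity phosphatases (Dusp) take the activating phosphates off MAP kinases. It also induces the PEA3-group ETS transcription factors Etv4 and Etv5, so transcripts of these genes are widely read as markers of FGF and ERK signalling in neural progenitors.

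The P10 tables hold FPKM and the 8-week and culture tables TPM, both per transcript length. Levels are therefore compared only within P10, within 8 weeks and within culture. A P10 library held 17623 to 18470 genes above 0, a culture library 15537 to 15998, an MDZ 8w or RUN MDZ 8w library 15382 to 16709, and a Control 8w library 11163 to 11397. Of the genes detected in Control 8w replicates 2 or 3, 97.43% were detected in both, against 78.38% and 77.81% for the pairs with replicate 1 and 81.67% to 89.99% in the other 8-week pairs, and were counted as 1 sample (n = 2). Sox2, a transcription factor of neural stem and progenitor cells, stood at 87.4 to 106 FPKM at P10, 197 to 401 TPM at 8 weeks and 116 to 159 TPM in culture. Sex was uneven: Xist, expressed in females, was at 159 FPKM in Control P10 replicate 1 and at most 0.185 FPKM in the other P10 libraries. At 8 weeks the Y-linked gene Ddx3y had 0, 29.1 and 0 TPM in RUN MDZ 8w, 51.3 to 72.3 TPM in MDZ 8w and 48.6 to 58.2 TPM in Control 8w, so sex was not balanced between RUN MDZ 8w and the other 8-week groups. Adjusted p below denotes limma's test on log2(value + 1) with Benjamini-Hochberg adjustment over all genes tested (those with a mean of at least 1), and a gene passed below 0.05.

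Promoter windows, from 250 bases before to 50 after the start site, came from RefSeq on build GRCm38.p6 and were held for 7 of the 10 genes. They are shown for 4 genes that passed the test in culture, 2 higher (Dusp5, Etv5) and 2 lower (Spry1, Dusp6) in Egr1 culture, because Egr1 is a DNA-binding factor. The windows are Dusp5 at chr19:53528895-53529194 (+ strand), Etv5 at chr16:22439521-22439820 (- strand, the upstream of its 2 listed start sites), Spry1 at chr3:37639697-37639996 (+ strand) and Dusp6 at chr10:99262981-99263280 (+ strand). All run 5′ to 3′ on the gene's strand, and capitals mark motif matches.
Dusp5: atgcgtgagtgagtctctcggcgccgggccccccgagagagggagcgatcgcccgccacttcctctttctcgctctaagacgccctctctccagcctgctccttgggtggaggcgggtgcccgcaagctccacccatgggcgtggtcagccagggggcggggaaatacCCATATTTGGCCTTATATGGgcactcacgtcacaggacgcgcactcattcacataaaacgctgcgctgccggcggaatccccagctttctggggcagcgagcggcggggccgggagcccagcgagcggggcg
Etv5: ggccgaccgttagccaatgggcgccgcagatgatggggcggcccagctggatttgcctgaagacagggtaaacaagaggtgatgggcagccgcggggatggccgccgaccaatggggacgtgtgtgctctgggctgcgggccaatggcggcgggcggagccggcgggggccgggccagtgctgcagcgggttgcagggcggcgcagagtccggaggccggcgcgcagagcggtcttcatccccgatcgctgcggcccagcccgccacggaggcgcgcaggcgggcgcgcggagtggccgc
Spry1: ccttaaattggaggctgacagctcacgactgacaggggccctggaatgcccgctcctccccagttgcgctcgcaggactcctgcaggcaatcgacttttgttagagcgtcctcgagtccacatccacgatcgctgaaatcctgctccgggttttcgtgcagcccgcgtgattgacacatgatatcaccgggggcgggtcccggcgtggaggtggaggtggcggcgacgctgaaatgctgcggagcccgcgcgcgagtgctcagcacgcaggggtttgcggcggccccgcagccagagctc
Dusp6: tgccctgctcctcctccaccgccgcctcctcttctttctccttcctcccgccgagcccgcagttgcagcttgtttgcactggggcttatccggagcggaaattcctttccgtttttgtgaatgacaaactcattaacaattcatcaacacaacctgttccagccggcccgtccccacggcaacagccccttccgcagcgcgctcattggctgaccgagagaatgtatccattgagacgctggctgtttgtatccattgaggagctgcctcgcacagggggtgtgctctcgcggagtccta
None of the 7 genes' windows held the Egr core GCGNGGGCG on either strand, which 5.55% of 32851 promoter windows of this length held. The cAMP response element TGACGTCA (1.79% of windows) and the AP-1 motif TGANTCA (7.81%) were likewise not found in them. The Ets core CCGGAA, held by 14.9% of windows, was found once, in Spry2, starting 33 bases after the start site. The capitals in Dusp5 are a pair of adjoining CArG boxes, the element bound by serum response factor, at 82 and 72 bases before the start site. At least 1 CArG box was held by 1.63% of windows and at least 2 by 6 of them (0.0183%). The CArG box was added to the search after the Dusp5 sequence had been seen. These matches describe letters within the windows and say nothing of binding.

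In culture, added Egr1 went with opposite movements inside the gene set. The ERK phosphatase gene Dusp5 and the transcription factor genes Etv5 and Etv4 were higher in Egr1 culture, and the Sprouty genes Spry4 and Spry1 and the ERK phosphatase gene Dusp6 were lower. Egr1 itself had 1769, 1390 and 1291 TPM in Egr1 culture, against 361, 285 and 344 TPM in Control culture. Of the 10 members, 6 passed the test, 3 higher and 3 lower. Across all 12402 genes tested 44.2% passed, 15.2% higher and 29% lower, so a change as such was common in this comparison. The groups did not overlap in these 6 members, in the direction of the call; over all genes, 18.4% were higher without overlap and 37.1% lower.

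Among the phosphatases, Dusp5 encodes an ERK-specific phosphatase of the nucleus. It had 65.8, 52.7 and 55.4 TPM in Egr1 culture, against 10.2, 8.07 and 9.68 TPM in Control culture. The groups were far apart: means were 58.0 ± 6.91 TPM and 9.32 ± 1.12 TPM (SD, n = 3 each), a log2 change of 2.51 ± 0.11 (SE; adjusted p = 9.75e-07). Dusp6, which encodes the cytoplasmic ERK phosphatase, had 374, 371 and 336 TPM in Egr1 culture, against 462, 426 and 472 TPM in Control culture. Every Egr1 culture library lay below every Control culture library, with a log2 change of -0.33 ± 0.07 (adjusted p = 0.00347). The 2 ERK phosphatase genes thus moved apart. Within a library the ratio of Dusp5 to Dusp6 was 0.176, 0.142 and 0.165 in Egr1 culture, against 0.0221, 0.0189 and 0.0205 in Control culture. Dusp4, whose nuclear phosphatase accepts ERK and other MAP kinases, had 45.1 to 55.1 TPM in Egr1 culture and 41.2 to 50.2 TPM in Control culture. Its groups overlapped, and its log2 change of 0.06 (95% interval -0.17 to 0.30) did not pass (adjusted p = 0.652).

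Etv5 had the highest level of the 10 members in Egr1 culture and stood second to Dusp6 in Control culture. It had 663, 605 and 539 TPM in Egr1 culture, against 266, 238 and 270 TPM in Control culture. The groups did not overlap, with a log2 change of 1.22 ± 0.08 (adjusted p = 1.05e-05). Its close relative Etv4 had 88.7, 94.0 and 79.5 TPM in Egr1 culture, against 73.3, 66.5 and 64.1 TPM in Control culture. That was a smaller rise without overlap, with a log2 change of 0.36 ± 0.08 (adjusted p = 0.00759). Etv1, the other PEA3-group gene and not a member, fell to 38.9 ± 4.14 TPM in Egr1 culture, against 52.6 ± 4.77 TPM in Control culture (log2 change -0.43; adjusted p = 0.00692).

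Spry4 had 43.1, 44.2 and 33.7 TPM in Egr1 culture, against 98.6, 84.4 and 99.6 TPM in Control culture. It was the largest fall among the members, with a log2 change of -1.21 ± 0.11 (adjusted p = 5.59e-05). Spry1 had 74.1, 76.4 and 60.8 TPM in Egr1 culture, against 110, 95.7 and 111 TPM in Control culture. Its groups did not overlap either (log2 change -0.58 ± 0.10; adjusted p = 0.0016). Spry2, the Sprouty gene with the highest level in culture, had 186 to 219 TPM in Egr1 culture and 208 to 228 TPM in Control culture, and its log2 change of -0.11 (95% interval -0.28 to 0.05) did not pass (adjusted p = 0.232). Thus Spry4 and Spry1 passed as lower and Spry2 did not pass. The ratio of Spry4 to Spry2 was 0.181 to 0.216 in Egr1 culture and 0.406 to 0.441 in Control culture. Spred1 and Spred2, whose products bring neurofibromin to the membrane, did not pass. Spred1 had 68.9 to 82.9 TPM in Egr1 culture and 80.9 to 98.6 TPM in Control culture (log2 change -0.21, 95% interval -0.42 to 0.01; adjusted p = 0.104). Spred2 had 24.1 to 31.8 TPM in Egr1 culture and 29.2 to 36.1 TPM in Control culture (log2 change -0.17, 95% interval -0.44 to 0.10; adjusted p = 0.281).

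**Figure D1:**
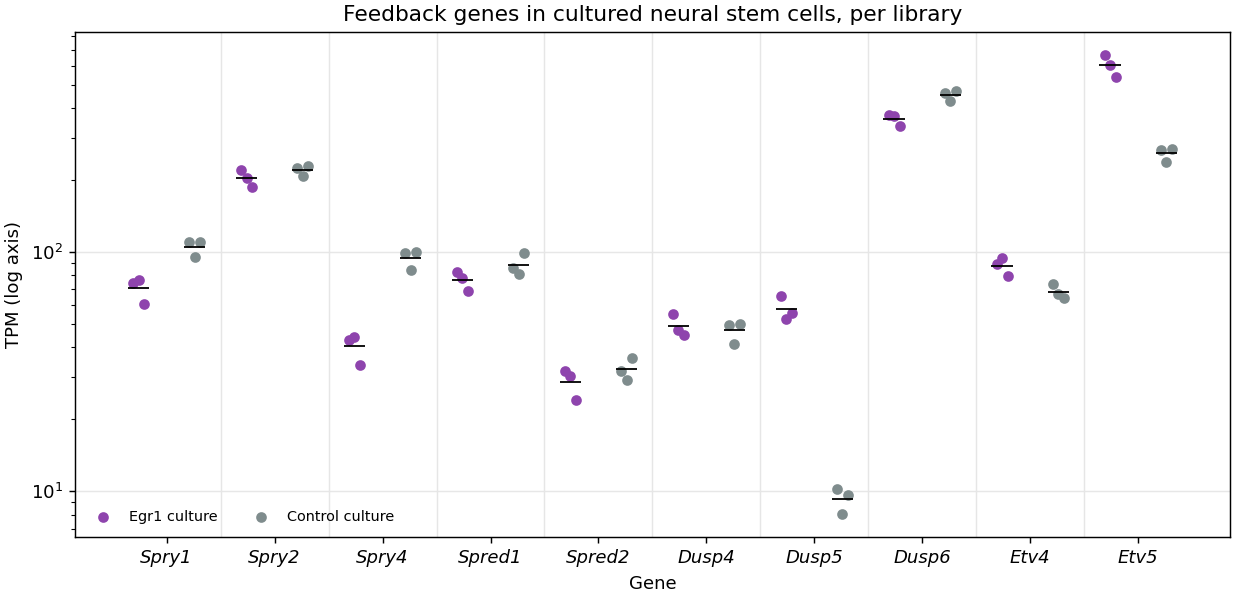
Level of each of the 10 genes in TPM (log axis) in each of the 3 Egr1 culture and 3 Control culture libraries, with bars at group means. Dusp5, Etv4 and Etv5 points of Egr1 culture lie above those of Control culture without overlap, and Spry1, Spry4 and Dusp6 points lie below.

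All 6 calls kept their sign and side of the threshold under each of 13 alternative settings. The median log2 change over all genes was -0.10, and 0.01 after median-of-ratios scaling, where 2776 genes were called higher and 2721 lower, against 1888 and 3598 as deposited. Under that scaling Dusp5 stood at 2.62, Etv5 at 1.33, Etv4 at 0.47, Dusp6 at -0.22, Spry1 at -0.47 and Spry4 at -1.10 on the log2 scale. The summed level of 6 oligodendrocyte precursor markers moved with these changes: it was 794 to 921 TPM in Egr1 culture and 1571 to 1664 TPM in Control culture, with Olig1 and Olig2 lower and Pdgfra higher in Egr1 culture and Sox10 listed at 0 in every Control culture library. Other marker sums lay apart too. Neuroblast and immature neuron markers summed to 169 to 207 TPM in Egr1 culture and 35.3 to 42.0 TPM in Control culture. Of 4 tested, 1 passed, as higher. The sum of mature neuron markers was also higher, at 16.3 to 20.6 TPM against 3.43 to 4.23 TPM, and 3 of 4 tested passed as higher. The mature astrocyte sum was lower, at 371 to 410 TPM against 532 to 556 TPM. Of 5 tested, 1 passed as higher and 2 as lower. Radial glia and stem markers had a lower sum too, at 4966 to 5209 TPM against 5619 to 6074 TPM. These 7 markers were mixed, with 3 passing as higher, 3 as lower and a median log2 change of 0.0183. The part of cell composition in the members' changes was not tested.

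The rest of the pathway was split in culture too: of 72 other pathway genes tested 19 were higher and 26 lower, or 62.5% called, beside 44.2% of all genes. Of 14 other feedback inhibitors, 5 were higher and 6 lower. Il17rd, which encodes the FGF receptor inhibitor Sef, fell to 5.03 ± 0.46 TPM in Egr1 culture, against 16.6 ± 1.38 TPM in Control culture (log2 change -1.54; adjusted p = 1.02e-05), and Lrig1, Peak1 and Fgfrl1 had log2 changes of -0.85, -0.70 and -0.69. Socs5 rose with a log2 change of 0.76 (adjusted p = 0.000177). Of 22 core pathway genes 1 was higher and 5 were lower. These genes lay mostly on one side, since only 1 of the 22 had a positive log2 change. Without overlap, 12 were lower (37.1% of all genes) and 1 was higher (18.4%). Their median log2 change was -0.182, beside -0.0982 over all genes. The ERK1 gene Mapk3 had 55.8 ± 6.32 TPM in Egr1 culture and 115 ± 3.97 TPM in Control culture (log2 change -1.04; adjusted p = 2.48e-05). Among 8 receptor genes tested, 3 were higher and 3 lower. The FGF receptor gene Fgfr3 had 49.5 ± 5.75 TPM in Egr1 culture and 17.7 ± 0.65 TPM in Control culture (log2 change 1.43; adjusted p = 8.44e-06), while Fgfr1 had a log2 change of -0.64 (adjusted p = 0.000839). Of 6 ligand genes tested 1 was higher and 3 were lower, and Fgf1 had a log2 change of -1.14 (adjusted p = 9.84e-06). ERK-induced early genes divided 7 higher and 6 lower among 16 tested, with Ier3 at 2.37, Phlda1 at 0.97, Junb at -1.39 and Ier2 at -1.19 on the log2 scale. Egr1 is one of those higher genes and was added to the cells. Of 4 other MAP kinase phosphatase genes tested, Dusp1 (0.53) and Dusp16 (0.33) were higher and Dusp7 (-0.33) was lower. Spred3 had a log2 change of -0.53 (adjusted p = 0.00479).

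At P10, 1 day after the last injection, no member passed the test. Of the 9 members tested 0 were called, where 0.00774% of 12914 genes tested were called by limma and 12.2% had an unadjusted p below 0.05. The unadjusted limma p was 0.00115 for Dusp6, 0.00116 for Spry4, 0.00248 for Spry2, 0.00424 for Etv4 and 0.0179 for Spry1. It was above 0.05 for Spred1, Spred2, Dusp4 and Etv5. In levels, 5 of the 9 stood above Control P10 in every MDZ P10 library (Spry2, Spry4, Dusp6, Etv4 and Etv5), where 12.2% of all genes did so. The median log2 change was 0.235 over the 9 members and 0.0148 over all genes tested. Markers of pericytes and smooth muscle moved beside them: 5 of 8 were lower in every MDZ P10 library, where 6.61% of all genes were, and their sum was 201 to 216 FPKM in MDZ P10 and 235 to 269 FPKM in Control P10. Their part in the members' values was not tested. In bulk RNA, a change in the number of cells of one type and a change in RNA per cell cannot be told apart.

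Spry4 had 17.4, 20.3 and 15.1 FPKM in MDZ P10, against 10.4, 13.2 and 10.9 FPKM in Control P10. Each MDZ P10 library lay above each Control P10 library, with a log2 change of 0.57 ± 0.12 (adjusted p = 0.215). Without Control P10 replicate 2 the value was 0.66 (adjusted p = 0.0376), and 101 genes were called in place of 1. That library stood apart in its mature oligodendrocyte markers, which summed to 2030 FPKM there, 868 and 965 FPKM in the other Control P10 libraries and 867 to 1184 FPKM in MDZ P10, and it was the shallowest at P10, at 0.571 of the depth of the deepest library. Oligodendrocyte precursor markers (6 genes) summed to 1178 FPKM in that library and to 766 and 790 FPKM in the other Control P10 libraries. In MDZ P10 they summed to 962 to 1098 FPKM. Of these 6 genes, 5 had a positive log2 change and 0 were higher without overlap, with a median of 0.304. The part of these markers in the members' values was not tested. Spry2, the member with the highest mean in MDZ P10, had 79.6, 76.0 and 70.4 FPKM in MDZ P10, against 63.5, 53.4 and 61.1 FPKM in Control P10. Its log2 change was 0.34 ± 0.08 (adjusted p = 0.227). For Spry1 the values were 28.7, 32.1 and 26.3 FPKM in MDZ P10 and 21.6, 26.9 and 22.1 FPKM in Control P10. Those groups overlapped by a single library, Control P10 replicate 2 (log2 change 0.30 ± 0.10; adjusted p = 0.323).

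Dusp6 had 36.4, 32.0 and 31.8 FPKM in MDZ P10, against 25.7, 27.0 and 27.1 FPKM in Control P10. No library of MDZ P10 reached down to the Control P10 range (log2 change 0.32 ± 0.06; adjusted p = 0.215). Dusp5 was low at this age, with 0.785, 0.921 and 0.684 FPKM in MDZ P10, against 0.433, 0.460 and 0.225 FPKM in Control P10. It was the member left out by the filter on low values, and without that filter its log2 change was 0.39 (adjusted p = 0.331). Dusp4 had 12.1 to 17.1 FPKM in MDZ P10 and 9.87 to 16.1 FPKM in Control P10, with overlapping groups (adjusted p = 0.800).

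Etv4 had 72.6, 72.3 and 67.3 FPKM in MDZ P10, against 62.5, 56.9 and 60.5 FPKM in Control P10. The groups did not overlap, and the log2 change was 0.23 ± 0.06 (adjusted p = 0.247). Etv5 differed less, with 25.3, 27.0 and 25.4 FPKM in MDZ P10 and 24.7, 24.3 and 24.6 FPKM in Control P10 (log2 change 0.08 ± 0.05; adjusted p = 0.560). The Spred genes overlapped between groups: Spred1 had 26.4 to 29.3 FPKM in MDZ P10 and 25.8 to 28.3 FPKM in Control P10 (log2 change 0.01; adjusted p = 0.962). Spred2 had 10.7 to 11.8 FPKM in MDZ P10 and 9.73 to 11.4 FPKM in Control P10 (log2 change 0.05; adjusted p = 0.819).

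**Figure D2:**
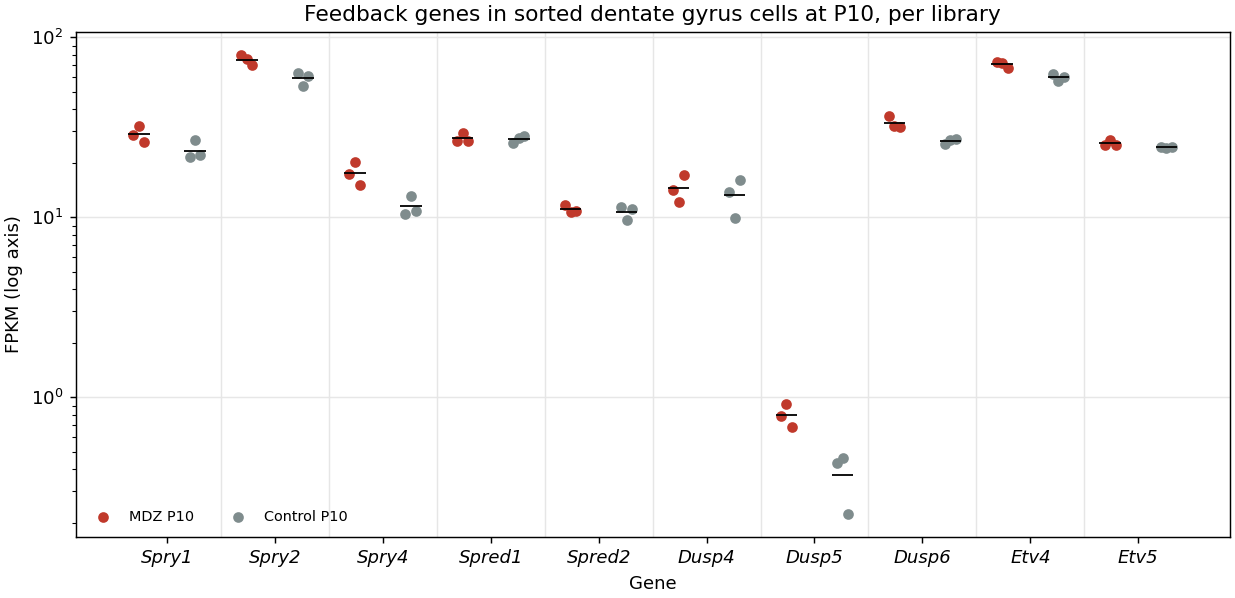
Level of each of the 10 genes in FPKM (log axis) in each of the 3 MDZ P10 and 3 Control P10 libraries, with bars at group means. Spry2, Spry4, Dusp5, Dusp6, Etv4 and Etv5 lie higher in MDZ P10 with no overlap between groups, and Spry1, Spred1, Spred2 and Dusp4 overlap.

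No other pathway gene listed passed at P10 either: 0 of 14 feedback inhibitors, 0 of 22 core genes, 0 of 11 receptors, 0 of 6 ligands and 0 of 16 ERK-induced early genes tested. Of those 16 early genes, 10 stood higher in every MDZ P10 library than in every Control P10 library, where 12.2% of all genes did so. The median log2 change was 0.327 over the 16 genes and 0.0148 over all genes tested. Egr1 had 289, 269 and 231 FPKM in MDZ P10, against 178, 150 and 187 FPKM in Control P10 (adjusted p = 0.206). The 7 radial glia and stem markers overlapped in their sum, with 1898 to 2004 FPKM in MDZ P10 and 1891 to 2482 FPKM in Control P10. One of them, Fabp7, was lower in every MDZ P10 library, with 836, 777 and 750 FPKM in MDZ P10, against 1037, 904 and 1203 FPKM in Control P10.

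At 8 weeks, no member passed in MDZ 8w against Control 8w. Called were 0 of 10 members, against 5.13% of the 15264 genes tested (4.68% higher, 0.452% lower). With Control 8w replicates 2 and 3 averaged, Spry2, Spry4, Spred1, Dusp5, Dusp6 and Etv4 stood above Control 8w in all 3 MDZ 8w libraries, and Dusp4 stood below. Counted the same way, 27.8% of all genes were higher without overlap and 11.3% lower. Spred1 overlapped when those replicates were taken apart, with 50.5 TPM in MDZ 8w replicate 2 and 52.6 TPM in Control 8w replicate 2. The median log2 change was 0.966 over the members and 0.364 over all genes. With quantile normalization the median over all genes was -0.06, and the members' median was not taken on that scale. Cell type markers moved beside the members. Of 7 radial glia and stem markers 6 were higher in MDZ 8w without overlap and 3 passed, and their sums were 2997 to 3428 TPM in RUN MDZ 8w, 3184 to 4813 TPM in MDZ 8w and 1969 to 2356 TPM in Control 8w. Of 6 mature astrocyte markers 5 were higher in MDZ 8w without overlap and 1 passed, with sums of 2729 to 3386 TPM in RUN MDZ 8w, 1879 to 2153 TPM in MDZ 8w and 942 to 1340 TPM in Control 8w. Of 7 neuroblast markers 5 were lower in MDZ 8w without overlap and 2 passed, with sums of 2464 to 2861 TPM in RUN MDZ 8w, 2325 to 3181 TPM in MDZ 8w and 4154 to 4324 TPM in Control 8w. In RUN MDZ 8w against Control 8w, 5 of 6 astrocyte and 4 of 7 endothelial markers passed as higher and 3 of 7 neuroblast markers as lower. The part of these cells in the members' values was not tested. A common estimate of spread was used at 8 weeks, yet Control 8w, counted as 2 samples, was the most uneven of the 3 groups.

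Spry4 had 89.2, 43.7 and 61.4 TPM in RUN MDZ 8w, 82.6, 36.9 and 29.2 TPM in MDZ 8w, and 15.8, 0.201 and 0 TPM in Control 8w. Control 8w lay below both other groups throughout, with adjusted p = 0.0514 for RUN MDZ 8w and 0.108 for MDZ 8w against it. With Control 8w replicates 2 and 3 apart these were 0.0151 and 0.0347, and over 18 alternative settings they ran up to 0.425 and 0.569. The log2 changes of Spry4 were 3.88 and 3.41. Without Control 8w replicate 1, which leaves 1 sample in that group with its spread borrowed from the others, they were 5.84 and 5.38. Spry2 was steadier, with 164, 129 and 152 TPM in RUN MDZ 8w, 166, 155 and 150 TPM in MDZ 8w and 85.2, 120 and 134 TPM in Control 8w. Its log2 change was 0.50 ± 0.22 in RUN MDZ 8w (adjusted p = 0.194) and 0.58 ± 0.22 in MDZ 8w (adjusted p = 0.173), each against Control 8w. These comparisons share the Control 8w samples.

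Spry1 varied inside the groups more than between them. It had 126, 51.8 and 125 TPM in RUN MDZ 8w, 122, 48.9 and 61.9 TPM in MDZ 8w, and 112, 29.3 and 41.5 TPM in Control 8w. Replicate 1 was high in every group, and neither RUN MDZ 8w (log2 change 0.56 ± 0.62; adjusted p = 0.556) nor MDZ 8w (0.18 ± 0.62; adjusted p = 0.899) differed from Control 8w beyond that spread. The 6 oligodendrocyte precursor markers summed to 6662, 2256 and 4110 TPM in RUN MDZ 8w, 4976, 1304 and 1741 TPM in MDZ 8w, and 3806, 957 and 1006 TPM in Control 8w. Libraries with high Spry1 were thus those with high sums of these markers, none of which was at 0 in any 8-week library. Over all 20 samples, after centring within P10, 8 weeks and culture, the genes with patterns closest to Spry1 were Megf11 (Pearson r 0.979), the precursor marker Cspg4 (0.949) and Sox6 (0.945), among 11340 genes. These r values describe libraries that fall into groups, and carry no test.

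**Figure D3:**
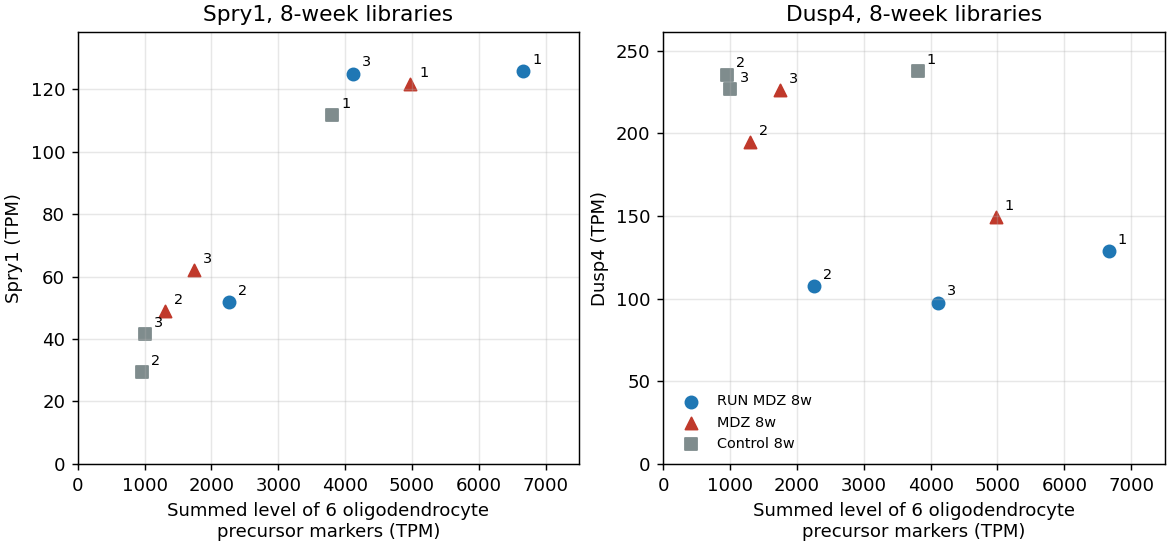
Level of Spry1 (left) and Dusp4 (right) in TPM against the summed TPM of 6 oligodendrocyte precursor markers in each 8-week library, numbered by replicate. Spry1 lies above 111 TPM in the 4 libraries with sums above 3800 TPM and below 62 TPM in the other 5, and Dusp4 is lowest in the RUN MDZ 8w libraries.

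Dusp4 went the other way from most members and was the 1 member called at 8 weeks. It had 129, 108 and 97.6 TPM in RUN MDZ 8w, 149, 195 and 226 TPM in MDZ 8w, and 237, 235 and 227 TPM in Control 8w. The RUN MDZ 8w libraries lay below all 6 others, and MDZ 8w lay just below Control 8w. Against Control 8w, Dusp4 fell in RUN MDZ 8w with a log2 change of -1.08 ± 0.22 (95% interval -1.59 to -0.56; adjusted p = 0.0231), where 11.3% of all genes were called and 1.9% were called lower. The adjusted p ran from 0.00491 to 0.604 over 18 alternative settings and stayed below 0.05 in 12; it was 0.0644 with quantile normalization, 0.11 with RUN MDZ 8w and Control 8w fitted alone, 0.0501 and 0.0637 when replicate 2 or 3 of RUN MDZ 8w was left out, and 0.0524 when replicate 2 of MDZ 8w was. Against MDZ 8w, RUN MDZ 8w had a log2 change of -0.75 ± 0.20 (adjusted p = 0.224), and MDZ 8w against Control 8w had -0.32 ± 0.22 (adjusted p = 0.425). Mature oligodendrocyte markers summed to 1843 to 2959 TPM in RUN MDZ 8w, 125 to 674 TPM in MDZ 8w and 167 to 235 TPM in Control 8w. The 4 ependymal markers summed to 249 to 500 TPM in RUN MDZ 8w and 32.1 to 64.7 TPM in MDZ 8w and were all listed at 0 in Control 8w. The Y-linked Ddx3y, given above, was lower in every RUN MDZ 8w library than in any other 8-week library, and Xist had 280 to 663 TPM in RUN MDZ 8w, 24.5 to 271 TPM in MDZ 8w and 95.6 to 527 TPM in Control 8w. The part of these cell types and of sex in the Dusp4 values was not tested.

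Dusp6 had 62.6, 113 and 57.1 TPM in RUN MDZ 8w, 99.0, 59.5 and 73.4 TPM in MDZ 8w, and 34.5, 42.3 and 34.9 TPM in Control 8w. Both exposed groups lay above Control 8w, with log2 changes of 1.00 ± 0.36 (adjusted p = 0.118) in RUN MDZ 8w and 1.03 ± 0.36 (adjusted p = 0.147) in MDZ 8w. The ratio of Dusp4 to Dusp6 within a library was 2.06, 0.952 and 1.71 in RUN MDZ 8w, 1.51, 3.27 and 3.08 in MDZ 8w, and 6.87, 5.56 and 6.50 in Control 8w. Control 8w had the highest ratios throughout; the difference in ratio was not tested. Dusp5 had 0, 0 and 9.33 TPM in RUN MDZ 8w, 7.95, 10.6 and 15.3 TPM in MDZ 8w, and was listed at 0 in all 3 Control 8w libraries. It was seen in every MDZ 8w library but did not pass against Control 8w (adjusted p = 0.0990). Over 18 alternative settings this adjusted p ran from 0.0187 to 0.741 and was below 0.05 in 4. With RUN MDZ 8w left out of the fit it was 0.0287, and without RUN MDZ 8w replicate 3 it was 0.0187.

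Etv4 had 146, 93.8 and 92.7 TPM in RUN MDZ 8w, 154, 61.1 and 77.3 TPM in MDZ 8w, and 44.2, 45.1 and 57.6 TPM in Control 8w. Every exposed library lay above every Control 8w library, with log2 changes of 1.17 ± 0.40 (adjusted p = 0.108) in RUN MDZ 8w and 0.90 ± 0.40 (adjusted p = 0.233) in MDZ 8w. Etv5 had 89.0, 64.9 and 41.4 TPM in RUN MDZ 8w and 95.9, 65.8 and 37.5 TPM in MDZ 8w. In Control 8w it was at 69.6 TPM in replicate 1 and listed at 0 in replicates 2 and 3, so the groups overlapped and the change did not pass (adjusted p = 0.240 in RUN MDZ 8w and 0.290 in MDZ 8w). Over 18 alternative settings the adjusted p ran up to 0.589 and 0.685. The log2 change was 2.909 in RUN MDZ 8w and 2.905 in MDZ 8w. Without Control 8w replicate 1 these log2 changes were 5.979 and 5.976, again with a single Control 8w sample.

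Spred1 turned on the same library in the opposite sense. It had 114, 72.0 and 89.0 TPM in RUN MDZ 8w, 75.5, 50.5 and 53.2 TPM in MDZ 8w, and 5.96, 52.6 and 42.7 TPM in Control 8w. The log2 changes against Control 8w were 2.31 ± 0.71 (adjusted p = 0.0784) in RUN MDZ 8w and 1.70 ± 0.71 (adjusted p = 0.207) in MDZ 8w, and without Control 8w replicate 1 they were 0.90 and 0.30. Spred2 had 72.4, 44.4 and 70.5 TPM in RUN MDZ 8w, 44.9, 42.8 and 38.9 TPM in MDZ 8w, and 15.5, 39.0 and 48.9 TPM in Control 8w. Its log2 changes were 1.19 ± 0.45 (adjusted p = 0.135) in RUN MDZ 8w and 0.66 ± 0.45 (adjusted p = 0.409) in MDZ 8w, and without that library 0.47 and -0.06.

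**Figure D4:**
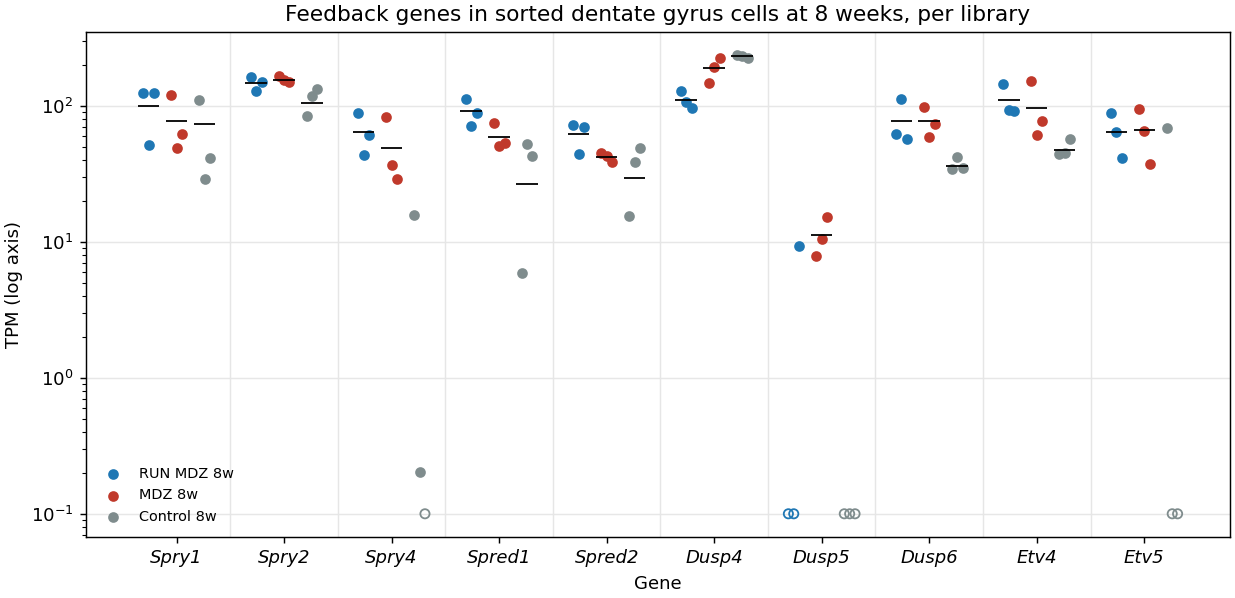
Level of each of the 10 genes in TPM (log axis) in each 8-week library, with bars at group means (Control 8w replicates 2 and 3 counted as 1 sample). Open circles at the foot of the axis are values listed at 0, and bars are left out where a library was at 0; Dusp4 runs opposite to most members, and Spry4, Dusp5 and Etv5 have Control 8w libraries at 0.

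Running was compared within exposed mice, and no member was called in RUN MDZ 8w against MDZ 8w, where 0.157% of 15264 genes were. Dusp4 was the only member whose groups did not overlap; 10.5% of all genes were lower without overlap. Dusp5 had a log2 change of -2.45 ± 0.94 (95% interval -4.62 to -0.29; adjusted p = 0.435), with RUN MDZ 8w replicates 1 and 2 listed at 0. Dusp6 and Etv5 were close between the groups, with log2 changes of -0.03 (95% interval -0.77 to 0.71) and 0.00 (-3.07 to 3.08). The adjusted p of the other 8 members, apart from Dusp4 and Dusp5, ran from 0.792 to 1. In RUN MDZ 8w against Control 8w the median log2 change was 1.14 over the 10 members and 0.513 over all genes; 6 members were higher without overlap (24.4% of all genes) and 1 was lower (10.6%), again with Control 8w replicates 2 and 3 averaged. Taken apart, Spry2 and Spred2 of these 6 overlapped.

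Of the 79 other pathway genes tested at 8 weeks, 8 passed in RUN MDZ 8w against Control 8w (10.1%, beside 11.3% of all genes) and 6 in MDZ 8w against Control 8w (7.59%, beside 5.13% of all genes). In RUN MDZ 8w against Control 8w these were 1 of 14 feedback inhibitors, 1 of 22 core genes, 3 of 11 receptors, 2 of 7 ligands and 1 of 17 early genes tested. In MDZ 8w against Control 8w they were 1 of 14 feedback inhibitors, 1 of 22 core genes, 2 of 11 receptors, 2 of 7 ligands and 0 of 17 early genes. Il17rd had 10.9, 4.42 and 7.42 TPM in RUN MDZ 8w and 9.03, 10.7 and 7.62 TPM in MDZ 8w and was listed at 0 in every Control 8w library (adjusted p = 0.0163 and 0.0172). The receptor gene Fgfr3 had 109, 95.5 and 123 TPM in RUN MDZ 8w, 89.0, 72.6 and 93.8 TPM in MDZ 8w, and 15.7, 27.5 and 35.4 TPM in Control 8w. Its log2 changes against Control 8w were 2.24 (adjusted p = 0.00594) and 1.88 (adjusted p = 0.0159). Erbb4, Hbegf and Pdgfa also passed, higher in both exposed groups, with Pdgfa listed at 0 throughout Control 8w. Mapk3 was lower in MDZ 8w, at 129, 150 and 134 TPM, while the Control 8w libraries had 345, 217 and 208 TPM (log2 change -0.97; adjusted p = 0.0499). In RUN MDZ 8w against Control 8w the Ras gene Hras (-2.06; adjusted p = 0.0114) was lower, and Kdr (2.53; adjusted p = 0.0107) and the early gene Fosb (2.62; adjusted p = 0.0054) were higher. None of the pathway genes listed passed in RUN MDZ 8w against MDZ 8w.

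**Figure D5:**
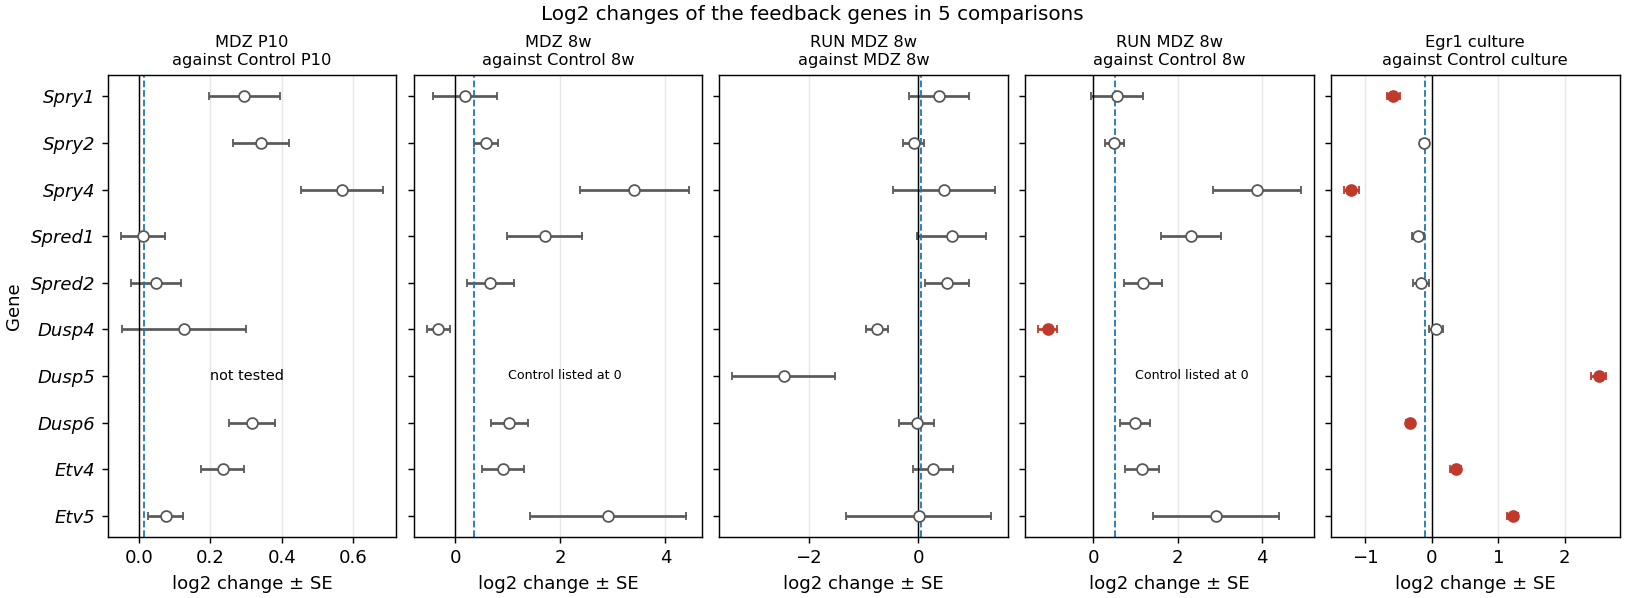
Log2 change ± SE of each gene on the log2(value + 1) scale in 5 comparisons, each with its own horizontal axis. Filled red points passed the test (6 in culture and Dusp4 in RUN MDZ 8w against Control 8w), and the dashed line is the median of all genes tested; Dusp5 was not tested at P10, and it has no point where all Control 8w libraries were listed at 0.

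Over the 20 samples the members did not vary as one block. Spred1 and Spred2 were the most alike (Pearson r 0.944 after centring), followed by Spry4 and Etv5 (0.798), while Dusp4 was negatively related to Spred1 (-0.573) and Spry4 (-0.544). In culture, however, Spry4 and Etv5 moved in opposite directions, with log2 changes of -1.21 and 1.22. In Control 8w replicates 2 and 3, averaged as 1 sample, Etv5 was listed at 0 and Spry4 at 0.201 and 0 TPM. The weight of that sample in the r of 0.798 was not tested. All these r values are descriptions over libraries that share their experiment and, at 8 weeks, the low gene number of Control 8w. Dusp5, which was not tested at P10, was left out of these correlations. No other member was among the 3 genes closest to another member: Spry4 was closest to Sorcs1 (0.981), Spred1 to Hiatl1 (0.989), Dusp6 to Slc39a13 (0.902), Etv4 to Lrrn2 (0.922), Etv5 to Bloc1s5 (0.977) and Dusp4 to Trak1 (0.902). The order of levels also differed by setting. Dusp4 had the highest mean of the members in MDZ 8w and Control 8w, but was in place 8 in MDZ P10 and place 7 in Control P10. Dusp5 had the lowest mean in every group but Egr1 culture, where its libraries lay between the 79.2 and 82.8 percentile of genes above 0, against 41.5 to 44.8 in Control culture.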

How the data were processed

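RNA-seq tables of 21 libraries in 7 groups were used. The deposited P10 values are FPKM and the deposited 8-week and culture values are TPM. The units come from the values, since the TPM libraries each sum to about 1000000 and the FPKM libraries to 241508 to 252344. The genome build mm10 and the tools TopHat, Bowtie2 and DESeq2 are named in the submitters' processing notes with no role or version. Which program made the values, with what annotation and strand setting, was not given in the sources used here. Depth is unknown at 8 weeks; from the steps of low values (between 0.005 and 0.1), it ran from 0.571 to 1 of the deepest library at P10 and from 0.899 to 1 in culture.

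Members were matched by symbol. Values were analysed as log2(value + 1) with limma 3.58.1 in R 4.3.3, with its intensity trend; a fit tested those genes whose mean was 1 or more, with Benjamini-Hochberg adjustment over all of them and a threshold of 0.05. A log2 change on this scale understates low genes. P10 and culture were fitted on their 6 libraries each, and 8 weeks on all 3 groups, with Control 8w replicates 2 and 3 averaged. Without counts their sampling noise cannot be computed; they were averaged since no other pair at 8 weeks was as alike. An exact permutation test of 3 against 3 could not go below 0.1, and none was used. Deviations from group means had correlations of -0.077 to 0.133 between same-numbered libraries and -0.216 to 0.165 between differently numbered ones. The numbers were not used as pairs. Named genes were the 10 members, up to 5 genes past the threshold with the largest change from each pathway list, and the 3 closest genes to each member by Pearson r. The last were sought among genes tested in all 3 fits, which leaves out Dusp5. Members and lists were chosen with earlier results of these data known. Tables were handled with Python 3.11.15, pandas 2.3.3 and numpy 2.4.6, and figures drawn with matplotlib 3.10.9. The fit was tested on simulated data with the means and spreads of P10 and culture, and not for the 8-week design. Alternatives were the pseudocount (0.1 and 5), no filter, quantile and median-of-ratios scaling, library weights, a replicate block, Control 8w replicates 2 and 3 apart, 2 groups alone, and each library left out.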

Additional observations from a re-analysis of the deposited data

How the results depend on the processing

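In culture, 5486 genes were called, and between 4383 and 6077 under the 13 alternatives. The members called numbered 6 in each of them, and Dusp4, which did not pass, was the only member to change sign (-0.028 to 0.12 over the libraries left out in turn). The other comparisons moved more; the cause was not tested.

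At P10, 1 gene was called by limma; the count was 2 with a pseudocount of 5, 4 with quantile normalization, 0 with median-of-ratios scaling, 5 with library weights and 0 to 101 with a library left out (101 without Control P10 replicate 2). Members called ran from 0 to 1 with a library left out. Small changes crossed 0: Spred1 stood at -0.0099 with quantile normalization, -0.010 with median-of-ratios scaling and -0.035 to 0.038 with a library left out, Spred2 ran from -0.015 to 0.087 and Dusp4 from -0.059 to 0.27.

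For MDZ 8w against Control 8w, 783 genes and 0 members were called. The genes were 1410 with a pseudocount of 0.1, 461 with 5, 152 with quantile normalization, 19 with library weights, 1787 with Control 8w replicates 2 and 3 apart and 207 to 2928 with a library left out. Members called were 2 with these replicates apart (Spry4 and Dusp5), 1 with the 2 groups alone and 0 to 2 with a library left out. Spry1 ran from -0.19 to 1.00 and Spred2 from -0.058 to 0.75. For RUN MDZ 8w against MDZ 8w, 24 genes were called, against 432 with library weights, 122 with the replicates apart, 360 with the 2 groups alone and 0 to 275 with a library left out; 0 members were called in any setting. Etv5 stood at -0.046 with quantile normalization and -0.024 with median-of-ratios scaling. With a library left out it ran from -0.35 to 0.32, Dusp6 from -0.33 to 0.16, Spry2 from -0.16 to 0.012 and Etv4 from -0.010 to 0.65. For RUN MDZ 8w against Control 8w, 1727 genes and 1 member were called. The genes were 406 with quantile normalization, 0 with library weights, 2904 with the replicates apart, 0 with the 2 groups alone and 910 to 3952 with a library left out. In the fit as reported, where 1727 genes passed, 4146 had an unadjusted limma p below 0.05. Such genes were not counted for the settings in which 0 passed. Members called were 2 with a pseudocount of 5 (Dusp4 and Spry4), 0 with quantile normalization, 0 with library weights, 2 with the replicates apart, 0 with the 2 groups alone and 0 to 3 with a library left out. Dusp5 stood at -0.73 with quantile normalization.

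The replicate numbers are shared between groups and were not used to pair the samples. At 8 weeks replicate 1 had the highest oligodendrocyte precursor marker sum in every group, and whether the numbers pair samples is not known. With the number as a replicate block, genes called were 0 at P10, 1227 for MDZ 8w against Control 8w (2 members), 14 for RUN MDZ 8w against MDZ 8w, 2595 for RUN MDZ 8w against Control 8w (3 members) and 4646 in culture (6 members); the 8-week block kept Control 8w replicates 2 and 3 apart.

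Depth at 8 weeks is unknown, so a value listed at 0 in Control 8w has no lower limit attached, and the smaller number of genes above 0 there runs with every comparison against that group.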
